A study of Mus musculus with 6 samples.

Results

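The genes described here are 10 components of the system by which cells detect RNA and DNA in the cytosol, taken by name from a count table of 13605 named mouse genes. They are the RNA helicase sensors Ddx58, Ifih1 and Dhx58, the adaptors Mavs and Tmem173, the sensors Eif2ak2 and Zbp1, and the oligoadenylate synthetase (OAS) genes Oas2, Oas3 and Oasl2. All 10 had a row in the table and all 10 passed the filter on low counts, although Oas2 did so with few reads. They are grouped by function. The libraries were of regulatory T cells (Tregs), CD4 T cells that carry the transcription factor Foxp3 and restrain other immune cells, from the livers of mice aged 14 months. The groups were Altre knockout (3 libraries) and Altre wild type (3 libraries), neither treated. Altre itself is a Treg-restricted long non-coding transcript. The labels used here give neither the strain, the sex, the form of the Altre deletion, the way the Tregs were purified nor whether each library came from a separate mouse. The p-values therefore measure the spread between libraries, which may be technical.

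Between 25315425 and 30870786 counts per library fell on the genes of the table. Levels are in CPM, each count relative to its library's TMM-scaled total. Foxp3 averaged 108 ± 32.5 CPM in knockout and 79.2 ± 7.91 CPM in wild type (SD, n = 3 each), Il2ra 434 ± 45.4 CPM in knockout and 305 ± 50.03 CPM in wild type, and Ctla4 290 ± 48.6 CPM in knockout and 264 ± 58.2 CPM in wild type, so defining Treg transcripts were present in both groups. No row was named Altre, so the transcript gives no check of the labels. The comparison asks how RNA levels in Tregs of the ageing liver differ when Altre is missing.

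Ddx58 encodes RIG-I and Ifih1 encodes MDA5, helicases that bind viral or misplaced cellular double-stranded RNA, and both then engage MAVS on the mitochondrial surface to switch on interferon genes. Dhx58 encodes LGP2, a related helicase without the signalling domain that tunes the other two. Tmem173 encodes STING, which relays the signal of the DNA sensor cGAS. Eif2ak2 encodes PKR, a kinase that stops translation initiation on binding double-stranded RNA, and ZBP1 senses left-handed nucleic acid and can trigger necroptosis. OAS enzymes make short oligoadenylates that activate the nuclease RNase L, and mouse Oasl2 belongs to the OAS-like branch of the family. Most of these genes are themselves induced by interferon.

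Interferon-responsive promoters often carry a tandem of the letters GAAA, the core of the interferon-stimulated response element. RefSeq windows of 250 bases before to 50 bases after a start site (GRCm38.p6) were found for 6 members: Ddx58, Ifih1, Mavs, Eif2ak2, Oas3 and Oasl2. They were searched on both strands for GAAA followed, after a gap of 2 bases, by GAAA. The pair was present in 4 of the 6 windows, those of Ddx58, Ifih1, Eif2ak2 and Oas3, against 3.44% of 32851 windows of all genes and 3.34% of the 12241 windows of genes tested. It was not in the windows of Mavs and Oasl2, which says only that this arrangement of letters is not in those 300 bases. The windows of the 3 genes with the largest gaps between genotypes among those with a window, and of Oas3 for contrast, are shown 5′ to 3′ along the gene's strand with the matched pair in capitals. Positions are counted from the start site as 1.
Oasl2 (plus strand, chr5:114896684-114896983, no match): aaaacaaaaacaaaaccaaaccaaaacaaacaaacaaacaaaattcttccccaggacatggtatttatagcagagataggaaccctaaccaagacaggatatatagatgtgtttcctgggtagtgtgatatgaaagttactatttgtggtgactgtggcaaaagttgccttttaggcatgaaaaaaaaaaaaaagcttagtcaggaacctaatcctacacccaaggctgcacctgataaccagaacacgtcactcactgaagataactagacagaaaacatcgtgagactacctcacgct
Ifih1 (minus strand, chr2:62646206-62646505, match starting at position 33): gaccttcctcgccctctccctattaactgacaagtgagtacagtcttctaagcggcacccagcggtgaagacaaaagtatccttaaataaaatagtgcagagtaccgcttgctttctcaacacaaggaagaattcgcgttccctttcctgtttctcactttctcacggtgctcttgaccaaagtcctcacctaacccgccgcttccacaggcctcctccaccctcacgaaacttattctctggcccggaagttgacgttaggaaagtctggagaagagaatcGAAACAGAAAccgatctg
Eif2ak2 (minus strand, chr17:78882523-78882822, match starting at position 19): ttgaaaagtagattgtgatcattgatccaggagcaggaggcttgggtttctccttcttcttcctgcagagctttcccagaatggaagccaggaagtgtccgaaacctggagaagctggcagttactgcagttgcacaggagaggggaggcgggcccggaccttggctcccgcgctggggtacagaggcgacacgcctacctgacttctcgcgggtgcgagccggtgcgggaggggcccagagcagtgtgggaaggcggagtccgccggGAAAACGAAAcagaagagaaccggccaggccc
Oas3 (minus strand, chr5:120777610-120777909, match starting at position -75): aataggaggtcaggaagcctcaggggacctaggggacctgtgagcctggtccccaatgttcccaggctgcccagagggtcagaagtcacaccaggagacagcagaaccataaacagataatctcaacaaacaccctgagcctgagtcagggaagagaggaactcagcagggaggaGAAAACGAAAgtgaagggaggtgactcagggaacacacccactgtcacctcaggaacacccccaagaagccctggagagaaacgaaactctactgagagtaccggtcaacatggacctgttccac

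In knockout Tregs 7 of the 10 genes had a lower fitted mean than in wild type and 3 a higher one. Their median log2 fold change (knockout over wild type) was -0.15, beside a median of 0.0039 over all 12789 genes tested. Oasl2 differed most, at 22.6 ± 4.46 CPM in knockout and 41.1 ± 6.32 CPM in wild type (SD, n = 3 each), followed, with the sparsely read Oas2 set aside, by the helicase genes Dhx58 and Ifih1 and by Eif2ak2. The adaptors Mavs and Tmem173 had nearly equal means in both genotypes, as did Oas3, though with a wide 95% interval (log2 fold change -0.90 to 0.93). Ddx58 and Zbp1 had slightly lower means in knockout. Their log2 fold changes were -0.18 (95% interval -0.52 to 0.16) and -0.12 (-0.41 to 0.17). No member passed an adjusted p of 0.05 in the edgeR quasi-likelihood test with Benjamini-Hochberg adjustment, where 0% of all genes tested passed and the smallest adjusted p of any gene was 0.363. At an unadjusted p under 0.05, 1 of the 10 members was lower in knockout, against 3.1% of all genes. All 3 knockout libraries lay below all 3 wild-type libraries for 2 members, Oasl2 and Eif2ak2, against 4.67% of all genes. The authors' deposited table calls 2 of the 10 lower in knockout, Oasl2 and Ifih1, and none higher, where it calls 1.37% of its 13623 genes lower. Its log2 fold changes for the 10 genes were within 0.0043 of a DESeq2 fit with the replicate number as a term beside genotype. From a fit with genotype alone they differed by a median of 0.0089, and by 0.99 for the sparsely read Oas2. Going by these values alone, its calls and the edgeR values here come from unlike designs. The tests, DESeq2 and edgeR, differ as well, and the part of each in the calls was not tested.

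**Figure D1:**
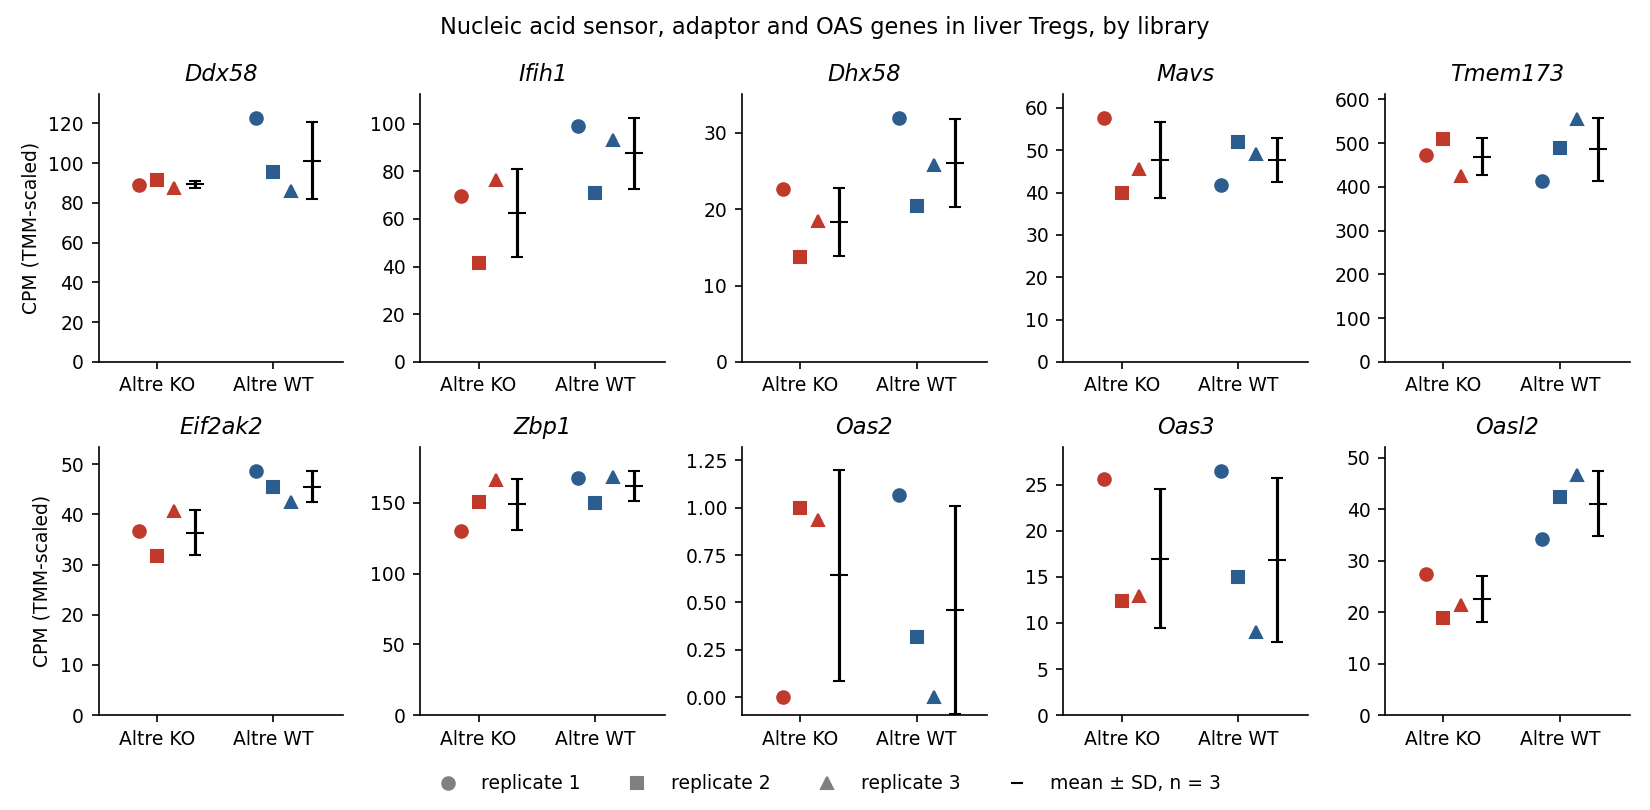
CPM of each of the 10 genes (vertical axis, own scale per panel) in the 3 Altre knockout libraries, left, and the 3 Altre wild-type libraries, right, with mean ± SD (n = 3) beside each group. Marker shapes give the replicate number, and Oasl2 and Eif2ak2 are the genes whose groups do not overlap.

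Ifih1 (chromosome 2, 62595798 to 62646255, minus strand) had 69.5, 41.7 and 76.3 CPM in knockout replicates 1, 2 and 3, against 98.9, 70.7 and 93.0 CPM in wild-type replicates 1, 2 and 3. Knockout replicate 2 was the lowest library and wild-type replicate 1 the highest, and the groups overlapped because knockout replicate 3 exceeded wild-type replicate 2. The means were 62.5 ± 18.3 CPM in knockout and 87.5 ± 14.9 CPM in wild type, a log2 fold change of -0.49 ± 0.23 (SE) with a 95% interval from -0.99 to 0.02 and an adjusted p of 0.866 (edgeR, Benjamini-Hochberg). The authors' deposited table gives -0.52 with an adjusted p of 0.0478. The adjusted p in DESeq2 was 0.0509 with the replicate number as a term and 0.642 with genotype alone. Without knockout replicate 2 the log2 fold change was -0.28, a move of more than 1.5 times.

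Dhx58 (chromosome 11, 100694884 to 100704271, minus strand), the regulator of both signalling helicases, had 22.7, 13.8 and 18.5 CPM in knockout replicates 1, 2 and 3, against 31.97, 20.4 and 25.8 CPM in wild type. Wild-type replicate 2 fell between knockout replicates 1 and 3, so the groups overlapped. The log2 fold change was -0.51 ± 0.25 (SE), with a 95% interval from -1.07 to 0.05 and an adjusted p of 0.880 (edgeR, Benjamini-Hochberg). Without wild-type replicate 1 it was -0.33. An antisense gene, Dhx58os, shares 141 exonic bases with Dhx58, and reads of the pair cannot be told apart if counting ignored strand.

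Ddx58 (chromosome 4, 40203773 to 40239828, minus strand) had 89.0, 91.3 and 87.6 CPM in the knockout libraries, against 122.7, 95.3 and 85.7 CPM in the wild-type libraries. The knockout libraries were close to each other, while wild type spread from below all of them to well above, with replicate 1 alone at the top. The log2 fold change was -0.18 ± 0.15 (SE), 95% interval -0.52 to 0.16, and it was -0.02 without wild-type replicate 1 and -0.30 without wild-type replicate 3. RIG-I and MDA5 transcripts thus stood at 89.3 ± 1.87 and 62.5 ± 18.3 CPM in knockout and at 101 ± 19.2 and 87.5 ± 14.9 CPM in wild type, and whether their genotype differences were unequal was not tested.

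Mavs (chromosome 2, 131234063 to 131248025, plus strand), the shared adaptor of RIG-I and MDA5, had 57.7, 39.9 and 45.5 CPM in knockout, against 41.9, 52.0 and 49.2 CPM in wild type. Its highest and its lowest library were both knockouts. The means were 47.7 ± 9.07 CPM in knockout and 47.7 ± 5.23 CPM in wild type, and the 95% interval of the log2 fold change ran from -0.40 to 0.40, which corresponds to 0.758 to 1.32 times the wild-type level. With a library left out it ran from -0.16, without knockout replicate 1, to 0.10, without knockout replicate 2.

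Tmem173, whose product STING sits in the endoplasmic reticulum, had 474, 509 and 425 CPM in knockout replicates 1, 2 and 3, against 413, 490 and 556 CPM in wild type. Both extremes of the 6 libraries were wild type and the groups overlapped fully. The log2 fold change was -0.05 ± 0.13 (SE), with a 95% interval from -0.34 to 0.24 and an adjusted p of 0.996 (edgeR, Benjamini-Hochberg). It was 0.02 without knockout replicate 3 and 0.05 without wild-type replicate 3, but -0.12 without knockout replicate 2 and -0.16 without wild-type replicate 1.

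Eif2ak2 (chromosome 17, 78852564 to 78882573, minus strand), the gene of PKR, had 36.8, 31.8 and 40.6 CPM in knockout, against 48.6, 45.4 and 42.5 CPM in wild type. Every knockout library lay below every wild-type library, most narrowly between knockout replicate 3 and wild-type replicate 3. The means were 36.4 ± 4.43 CPM in knockout and 45.5 ± 3.06 CPM in wild type, a log2 fold change of -0.32 ± 0.16 (SE), 95% interval -0.68 to 0.04, adjusted p 0.882 (edgeR, Benjamini-Hochberg). An antisense gene, Gm26637, shares 174 exonic bases with Eif2ak2. It averaged 4.65 ± 1.17 CPM in knockout and 6.88 ± 1.41 CPM in wild type, and its reads and those of Eif2ak2 are uncertain there if strand was not used.

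Zbp1 (chromosome 2, 173206612 to 173218923, minus strand) had 130.0, 151 and 166 CPM in knockout, against 167, 149.6 and 169 CPM in wild type. Knockout replicate 1 was alone at the low end and the groups overlapped. The log2 fold change was -0.12 ± 0.13 (SE), 95% interval -0.41 to 0.17, adjusted p 0.975 (edgeR, Benjamini-Hochberg). Without knockout replicate 1 the log2 fold change was -0.03, without knockout replicate 3 it was -0.20 and without wild-type replicate 2 it was -0.18.

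Oasl2 (chromosome 5, 114896936 to 114912234, plus strand) had 27.5, 18.8 and 21.4 CPM in knockout replicates 1, 2 and 3, against 34.2, 42.3 and 46.7 CPM in wild-type replicates 1, 2 and 3. The groups were apart, with 27.5 CPM the highest knockout value and 34.2 CPM the lowest wild-type value. The knockout level was 0.549 times that of wild type (95% interval 0.399 to 0.756), a log2 fold change of -0.86 ± 0.21 (SE) with an unadjusted p of 0.0019 and an adjusted p of 0.813 (edgeR, Benjamini-Hochberg). In DESeq2 on the same terms, which called 0.368% of genes, Oasl2 passed with an adjusted p of 0.0370 and was the 1 member called. Its log2 fold change was between -1.03 and -0.76 in all 13 alternatives run, and its adjusted p between 0.0143 and 0.9997. The authors' deposited table gives -0.88 with an adjusted p of 0.0126. OAS family genes are similar in sequence, and how reads shared with Oasl1 were assigned is not known.

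Oas3 (chromosome 5, 120753098 to 120777661, minus strand) spread widely within each genotype, at 25.6, 12.4 and 12.9 CPM in knockout and 26.5, 14.97 and 8.97 CPM in wild type. Replicate 1 was the highest library of both genotypes. The means were 17.0 ± 7.50 CPM in knockout and 16.8 ± 8.88 CPM in wild type, and the 95% interval of the log2 fold change, -0.90 to 0.93, corresponds to 0.536 to 1.9 times the wild-type level. The sign was negative, at -0.41, without knockout replicate 1, at -0.08 without wild-type replicate 2 and at -0.31 without wild-type replicate 3, while it was 0.18 without knockout replicate 2 or 3 and 0.50 without wild-type replicate 1.

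Oas2 (chromosome 5, 120730333 to 120749853, minus strand), the neighbour of Oas3, had the fewest reads of the set. It had 0, 25 and 29 counts in knockout replicates 1, 2 and 3 and 31, 8 and 0 counts in wild-type replicates 1, 2 and 3. Each genotype had a library with no read, where a count of 0 allows up to 3 reads, and another with 25 or more, so the spread within a genotype spanned the whole range (log2 fold change 0.47, 95% interval -2.89 to 3.84). With a library left out the log2 fold change ran from -0.12, without wild-type replicate 3, to 2.01, without wild-type replicate 1.

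**Figure D2:**
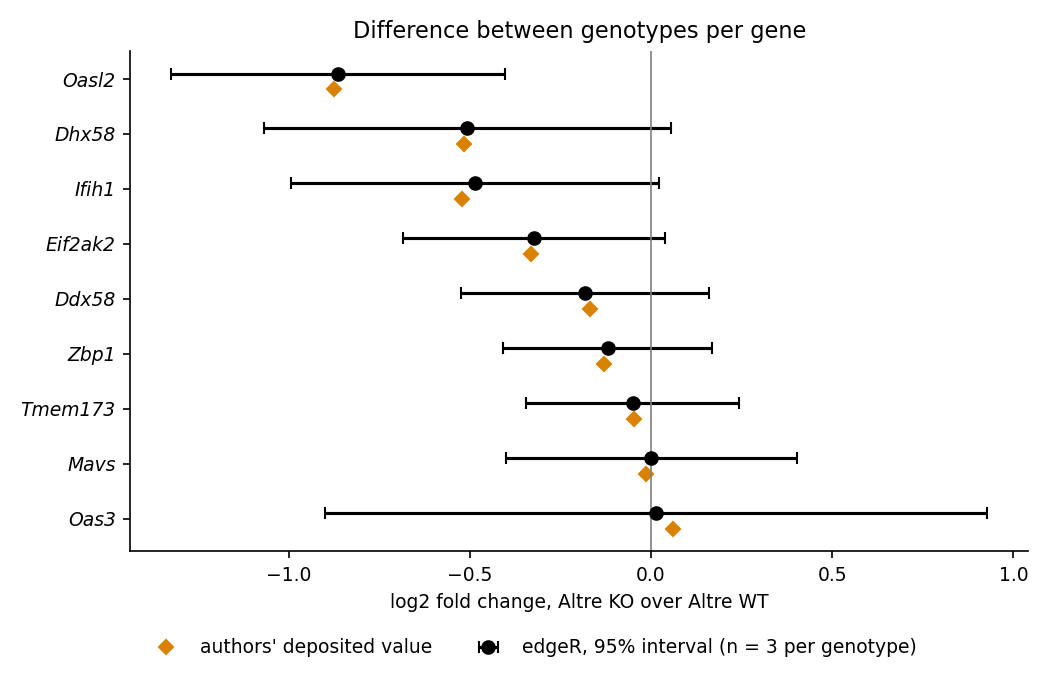
Log2 fold change of knockout over wild type (horizontal axis) for 9 genes, without Oas2. Circles with bars are edgeR values with 95% intervals (n = 3 per genotype) and diamonds the authors' deposited values, and the interval of Oasl2 is the 1 that does not reach 0.

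Divided by exon length, the levels were ordered Tmem173, Zbp1, Mavs, Ddx58, Ifih1, Eif2ak2, Dhx58, Oasl2, Oas3 and Oas2. The length is that of all annotated exons of a gene merged, not of the transcript expressed, and the order rests on it. Over the 6 libraries Tmem173 stood at 174 ± 19.4 CPM per kb of exon and Zbp1 at 44.0 ± 4.25 CPM per kb (SD, n = 6), each with a range clear of the next gene. The ranges of Mavs (14.3 ± 1.98 CPM per kb) and Ddx58 (13.5 ± 1.96 CPM per kb) overlapped. So did those of each neighbouring pair from Ifih1 (9.18 ± 2.48 CPM per kb) through Eif2ak2, Dhx58 and Oasl2 to Oas3 (2.39 ± 1.04 CPM per kb). Oas2 was clear of all others at 0.124 ± 0.114 CPM per kb. Tmem173, the gene of the DNA-sensing adaptor STING, thus had the highest level of the set by this measure, and Oas2 the lowest. Oas3 and Oasl2 had the next lowest means of the set, though the range of Oasl2 overlapped that of Dhx58.

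**Figure D3:**
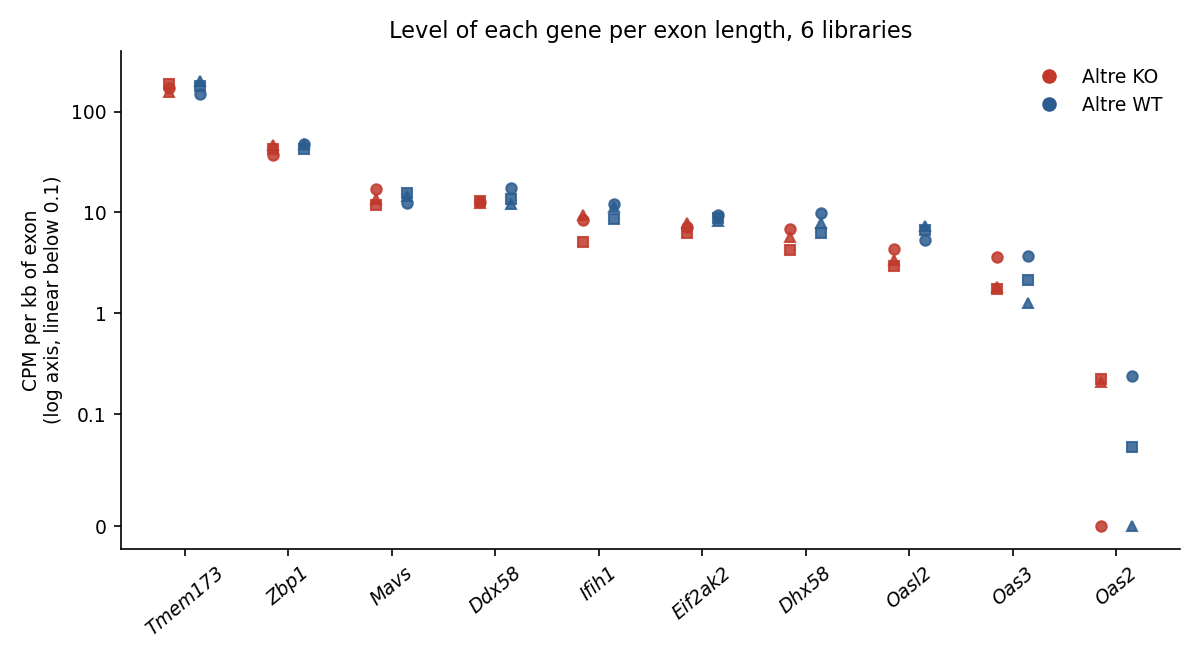
CPM per kb of exon (vertical log axis, linear below 0.1) for the 10 genes in falling order, with knockout libraries in red on the left and wild-type libraries in blue on the right of each gene. Tmem173 and Zbp1 stand above the rest, and most neighbours further down overlap.

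The genes did not share a single pattern over the libraries. Among the 9 members averaging at least 50 counts, knockout replicate 2 was the lowest of the knockouts for 6 and the lowest of all 6 libraries for 5. Wild-type replicate 1 was the highest of all 6 libraries for 5. Knockout replicate 2 and wild-type replicate 1 lay -0.80 and 0.45 log2 units from the gene mean for Ifih1 and -0.63 and 0.57 for Dhx58. The median deviation over the 10 genes was -0.07, -0.29 and -0.08 log2 units in knockout replicates 1, 2 and 3, against 0.32, 0.03 and 0.10 in wild-type replicates 1, 2 and 3. Oasl2 was also lowest in knockout replicate 2 but highest in wild-type replicate 3. Without knockout replicate 2 the members' median log2 fold change was -0.18 with 7 of 10 lower, and without wild-type replicate 1 it was -0.13 with 8 of 10 lower. It was -0.25 without knockout replicate 1 and -0.30 without wild-type replicate 3, moves of more than 1.5 times. Of the 10681 other genes averaging at least 50 counts, the 5 nearest to the mean profile of these 9 members over the 6 libraries were Hook3, Ubn2, Gpr45, Ireb2 and Xrn1. Their root mean square difference from it was 0.056 to 0.069 log2 units, and that of the members themselves 0.10 (Eif2ak2) to 0.50 (Oas3). The 5 genes were picked by this same distance, so these ranges cannot be compared.

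**Figure D4:**
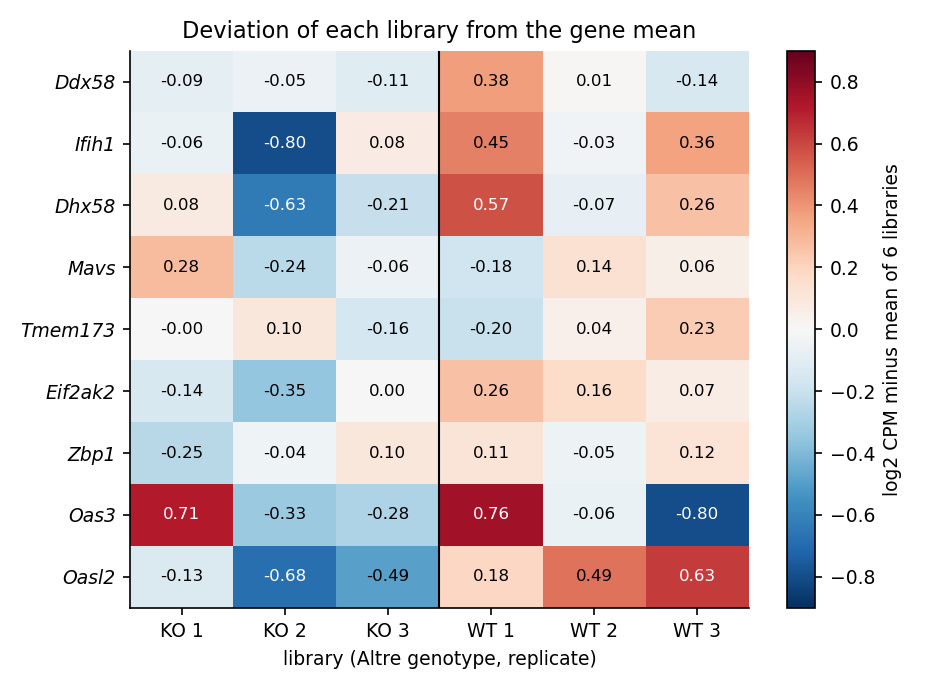
Log2 CPM of 9 genes minus their mean over the 6 libraries (colour and printed value), with the knockout libraries left of the line and the wild-type libraries right of it. Ifih1 and Dhx58 are lowest in knockout replicate 2 and highest in wild-type replicate 1, while Oasl2 is below its mean in every knockout and above it in every wild-type library.

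Genes around the sensors were counted in 10 further lists of 127 names, of which 102 had a row and 100 were tested. In knockout 43 had a higher fitted mean and 57 a lower one. The median of their log2 fold changes was -0.04, and 0 passed an adjusted p of 0.05 (edgeR, Benjamini-Hochberg). At an unadjusted p under 0.05, 8 of the 100 were lower and 3 higher, beside 3.1% lower and 2.72% higher of all genes tested. DESeq2 with genotype alone called 0. All knockout libraries lay below all wild-type libraries for 8 of the 100 and above for 5, beside 597 and 716 of 12789 genes tested. The interferon regulatory factor and nuclease lists held 1 each of those above. All genes named from these lists in the next paragraphs had an adjusted p of 0.842 or more. The authors' deposited table calls 1 of the 100 higher, Ppp1r15a, and 0 lower, beside 0.44% of its genes called higher.

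Among 24 partners of the RNA helicases and of MAVS, 16 had a lower and 8 a higher mean in knockout (median log2 value -0.15). Ddx60, a helicase reported to assist RIG-I, averaged 55.8 ± 4.15 CPM in knockout and 73.2 ± 9.41 CPM in wild type with no overlap. Trim25, a ubiquitin ligase linked to RIG-I activation, averaged 42.7 ± 5.75 CPM in knockout and 52.2 ± 7.70 CPM in wild type. Downstream, the MAVS-binding ligase gene Traf3 averaged 21.7 ± 5.50 CPM in knockout and 14.3 ± 1.40 CPM in wild type, again without overlap. The kinase gene Ikbke averaged 83.7 ± 21.7 CPM in knockout and 62.4 ± 9.49 CPM in wild type. Of the 6 interferon regulatory factors measured, Irf7 had the smallest p, at 71.0 ± 12.7 CPM in knockout and 96.9 ± 13.2 CPM in wild type (log2 fold change -0.45 ± 0.17, SE). Irf3, the constitutive target of TBK1, averaged 136 ± 10.3 CPM in knockout and 121 ± 11.6 CPM in wild type. Irf2 averaged 315 ± 9.10 CPM in knockout and 296 ± 4.36 CPM in wild type, and Irf1 276 ± 18.1 CPM in knockout and 262 ± 15.1 CPM in wild type.

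Upstream of STING, Mb21d1, the gene of cGAS, averaged 7.93 ± 1.85 CPM in knockout and 12.9 ± 3.48 CPM in wild type, a log2 fold change of -0.70 ± 0.30 (SE). Its libraries were apart only narrowly, with 9.89 CPM in knockout replicate 3 and 9.93 CPM in wild-type replicate 3. Mndal, of the Ifi200 family of DNA-binding proteins, averaged 144 ± 21.7 CPM in knockout and 192.8 ± 16.3 CPM in wild type, also without overlap, though family members are similar in sequence and their reads may be shared. Ifi208 of the same family averaged 14.9 ± 5.62 CPM in knockout and 9.84 ± 4.52 CPM in wild type. Trim56, a ubiquitin ligase of the STING pathway, averaged 36.1 ± 10.02 CPM in knockout and 44.6 ± 6.32 CPM in wild type. Of the 19 DNA-sensing genes tested, 13 were lower and 6 higher, median -0.09. The 13 nuclease and editing genes that limit self nucleic acid had 9 lower and 4 higher means. Their smallest p-values were for the endolysosomal nuclease gene Pld4 (10.1 ± 2.27 CPM in knockout and 6.99 ± 0.697 CPM in wild type), and for Dnase1l3, Rnaseh2c and Rnaset2b. Dnase1l3 averaged 21.6 ± 4.56 CPM in knockout and 27.9 ± 4.54 CPM in wild type, and Rnaseh2c, of an enzyme that removes RNA from DNA, 83.3 ± 11.4 CPM in knockout and 96.1 ± 7.95 CPM in wild type. Rnaset2b averaged 1.63 ± 0.380 CPM in knockout and 2.42 ± 0.479 CPM in wild type.

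Among 6 further genes of the OAS and RNase L axis, Oasl1, the other OAS-like gene, averaged 3.46 ± 1.56 CPM in knockout and 7.20 ± 2.97 CPM in wild type, a log2 fold change of -1.05 ± 0.45 (SE) without overlap. Oas1a averaged 72.5 ± 4.12 CPM in knockout and 84.4 ± 4.61 CPM in wild type, again without overlap. Oas1c averaged 6.81 ± 0.690 CPM in knockout and 7.84 ± 1.40 CPM in wild type. Abce1, whose product is known as an inhibitor of RNase L, averaged 124 ± 12.3 CPM in knockout and 113 ± 15.5 CPM in wild type. Of 11 genes of the PKR axis, 7 had a higher and 4 a lower mean in knockout. Ppp1r15a and Ppp1r15b encode regulatory subunits of the phosphatase that reverses PKR's action on eIF2. Ppp1r15b averaged 44.9 ± 8.27 CPM in knockout and 32.5 ± 0.738 CPM in wild type without overlap. Ppp1r15a had 63.1, 70.7 and 300.3 CPM in knockout replicates 1, 2 and 3, against 51.9, 46.7 and 99.7 CPM in wild type, with replicate 3 the highest of each genotype. The eIF2B subunit genes Eif2b1 and Eif2b5 averaged 59.3 ± 1.79 and 10.2 ± 2.86 CPM in knockout and 49.96 ± 14.6 and 16.2 ± 5.93 CPM in wild type. Of the ZBP1 partners, Ripk3 averaged 79.6 ± 5.04 CPM in knockout and 81.6 ± 13.5 CPM in wild type, and Casp8 311 ± 41.8 CPM in knockout and 281 ± 10.1 CPM in wild type. Ripk1 and Fadd averaged 13.2 ± 3.15 and 28.5 ± 3.09 CPM in knockout and 14.4 ± 2.40 and 29.0 ± 4.16 CPM in wild type. All 5 genes of that list had overlapping groups.

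The factors that carry interferon signals to most of these sensor genes were in a list of 10, with 6 lower and 4 higher in knockout (median log2 value -0.15). Irf9 averaged 265 ± 14.7 CPM in knockout and 316 ± 20.9 CPM in wild type, and the interferon-induced modifier gene Isg15 averaged 55.1 ± 7.46 CPM in knockout and 79.8 ± 19.0 CPM in wild type. For both Irf9 and Isg15 each knockout library lay below each wild-type library. Socs1, a brake on this signalling, averaged 135 ± 48.4 CPM in knockout and 179 ± 6.16 CPM in wild type. Of 20 interferon genes listed, Ifng alone had a row, at 8.97 ± 7.25 CPM in knockout and 8.24 ± 2.77 CPM in wild type. All 5 endosomal sensing genes tested had a higher mean in knockout, and Tlr3 and Tlr8 had rows but too few reads to be tested. Tlr3 had 0 counts in every knockout library, against 25, 86 and 0 counts in wild type, and Tlr8 had 16, 0 and 3 counts in knockout, against 0, 17 and 0 in wild type. The smallest p among them was that of the adaptor gene Ticam1 (10.8 ± 1.20 CPM in knockout and 6.77 ± 2.16 CPM in wild type), whose groups did not overlap. Unc93b1, a chaperone of endosomal receptors, averaged 87.9 ± 18.6 CPM in knockout and 76.0 ± 4.99 CPM in wild type. The RNA receptor gene Tlr7 averaged 13.6 ± 0.503 CPM in knockout and 11.3 ± 2.78 CPM in wild type, and the adaptor gene Myd88 86.4 ± 6.46 CPM in knockout and 78.3 ± 11.2 CPM in wild type.

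**Figure D5:**
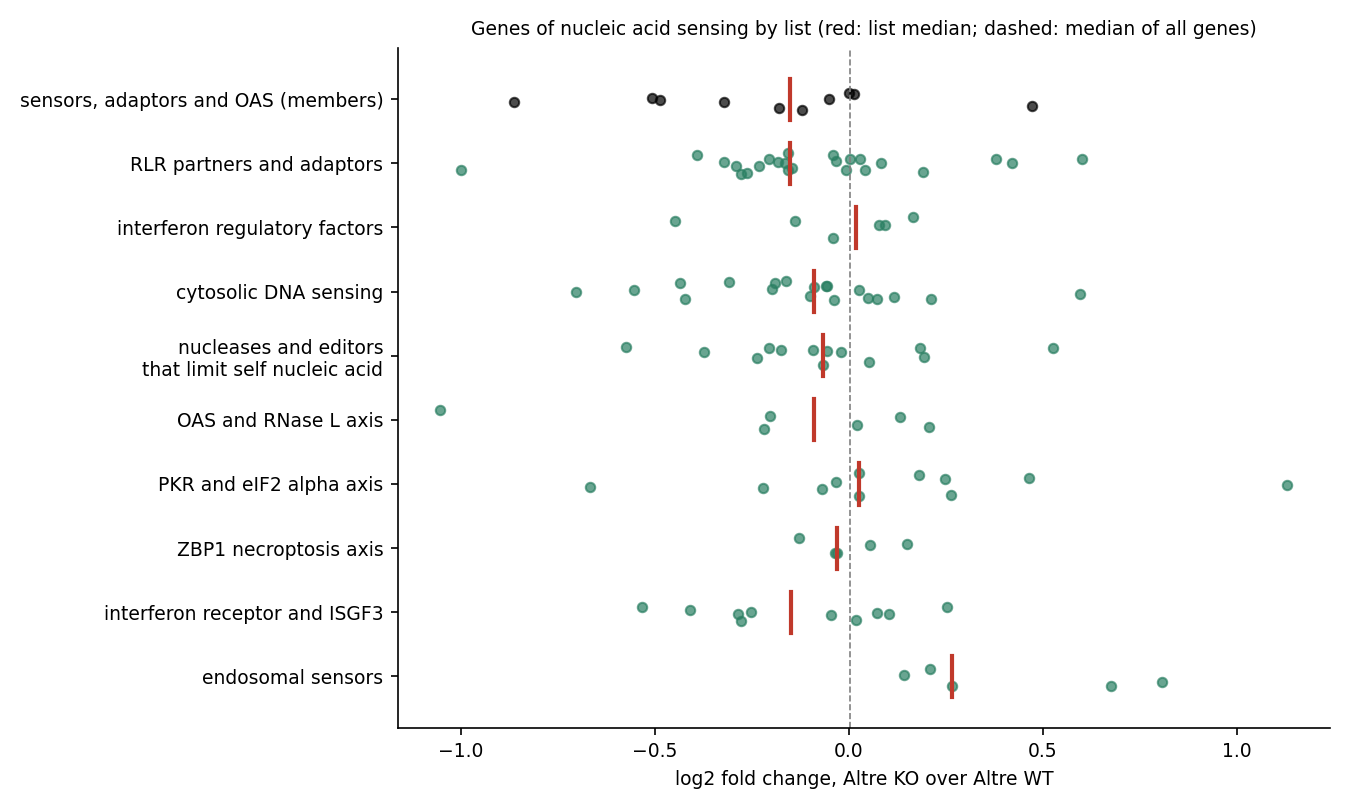
Log2 fold change of knockout over wild type (horizontal axis) for each tested gene of the sensor, adaptor and OAS set (top) and of 9 pathway lists, with list medians in red and the median of all genes dashed. The list of interferon genes, with 1 gene measured, is not drawn, and the medians lie between -0.15 and 0.27.

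Markers of other liver cells were counted in the same libraries, and none of those tested passed an adjusted p of 0.05 (edgeR, Benjamini-Hochberg). Of 14 macrophage and Kupffer cell markers measured, 13 had a higher mean in knockout. The summed level of the 14 was 249.9 to 382 CPM in knockout and 206 to 235 CPM in wild type. For 6 of the 14 each knockout library lay above each wild-type library, beside 716 of all 12789 genes tested. The marker with a lower mean was C1qc, at 8.81 ± 8.15 CPM in knockout and 20.4 ± 13.3 CPM in wild type, with overlapping groups. Among the 14, Vsig4 was at 0 in wild-type replicates 1 and 2 and Timd4 in wild-type replicate 2. None was at 0 in all libraries, and the further marker Clec4f had no row. The 8 CD8 T and NK cell markers measured summed to 65.5 to 74.1 CPM in knockout and 49.4 to 55.9 CPM in wild type. Of these, 6 had a higher mean in knockout, while Gzma and Gzmb had a lower one. Prf1 was 32.3% of the sum in knockout and 30.8% in wild type. Tyrobp, at 19.0 ± 5.47 CPM in knockout and 10.9 ± 1.73 CPM in wild type, was the 1 of the 8 whose groups did not overlap. Dendritic cell markers (139 to 162 CPM in knockout, 158 to 171 CPM in wild type) and B cell markers (2399.9 to 3208 CPM in knockout, 2764 to 3792 CPM in wild type) overlapped. Bst2, itself induced by interferon, made up 79.6% of the dendritic cell sum in knockout and 78.9% in wild type, and Ighm 96.7% of the B cell sum in knockout and 97.1% in wild type. The 3 endothelial markers measured summed to 139.9 to 158 CPM in knockout and 96.1 to 126 CPM in wild type, of which Pecam1 alone was 98.4% in each. The 2 neutrophil markers measured summed to 0 to 1.77 CPM in knockout and 0.396 to 1.17 CPM in wild type. Of 8 hepatocyte markers looked up, none had a row. The 11 Treg and CD4 T cell markers summed to 7889.5 to 9220.0 CPM in knockout and 7905 to 8735 CPM in wild type. Trac alone was 23.0% of the sum in knockout and 24.1% in wild type. Of the 11, 7 had a higher and 4 a lower mean in knockout. For 3 of the 11, Il2ra, Cd4 and Lrrc32, each knockout library lay above each wild-type library, beside 716 of all 12789 genes tested. Lrrc32 averaged 53.5 ± 21.1 CPM in knockout and 23.3 ± 2.40 CPM in wild type. The part of such cells in the sensor gene values was not tested. In bulk libraries a change in the number of cells of a type and a change in RNA per cell cannot be told apart.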

How the data were processed

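Tregs of mouse liver gave 6 mRNA libraries (SMARTER kit, per the labels' protocols), 3 per Altre genotype. STAR, cutadapt, DESeq2 and build mm10 are listed, per the submitters' processing notes. How reads were counted, on which annotation and whether by strand is not stated in the sources used. The authors deposited whole-number counts by gene and library. Beside them stand, per the file headers, a mean normalized count (signal), log2 fold changes and their standard errors, Wald statistics (score) and p-values. The fold changes are quoted as knockout over wild type, a direction checked against the counts. Of 3475 rows with a deposited absolute log2 fold change over 0.5, 3304 had that sign in the counts. The deposited fold changes lie nearest a DESeq2 fit with the replicate number as a term, going by their values alone. Of 13623 rows, 18 with names turned into dates (0.294% to 0.308% of counts) were dropped, leaving 13605. The smallest deposited mean was 5.96.

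Counts were tested in R 4.3.3 with edgeR 4.0.16 (TMM scaling, filterByExpr, quasi-likelihood test on genotype only), giving 12789 genes, with Benjamini-Hochberg adjustment over all of them and a threshold of 0.05. Standard errors were taken as the log2 fold change over the root of the F statistic. Alternatives were DESeq2 1.42.0, limma-voom (limma 3.58.1), other scaling and filters, a replicate block and each library left out. No replicate pair was within sampling noise of each other (chi-square of 40.4 to 73.0 per gene). Positions and exon lengths come from GENCODE M21 (GRCm38, the assembly of mm10), promoters from RefSeq.

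Named are all members, up to 4 genes of each pathway list by smallest p, the 5 genes nearest the mean member profile, and Foxp3, Il2ra and Ctla4. A gene so chosen is not reported here. Members and lists were chosen with earlier results of these data known.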

Additional observations from a re-analysis of the deposited data

How the results depend on the processing

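No gene passed in edgeR with other size factors, with no filter, with genes averaging at least 50 counts, or in limma-voom, as in the fit reported. DESeq2 with genotype alone called 49 genes, or 0.368% (17 higher, 32 lower), 1 of them a member, Oasl2. Leaving out each library in edgeR called 0 to 1. The replicate numbers were not shown to pair the samples: same-numbered libraries had correlated deviations of 0.108, 0.082 and 0.024, though every library correlated best with its own number, a hint from the data and not the design. The deposited log2 fold changes lie within 0.0043 of the blocked DESeq2 values for the members, and the authors' deposited table calls 247 genes. With the replicate block edgeR called 16 of 12789 genes (5 higher, 11 lower) and DESeq2 244 of 13605 genes fitted (58 higher, 186 lower). Of the 10 members these fits called 0 and 1 (Oasl2), and of the 100 pathway genes 0 and 1. Ifih1 had an adjusted p of 0.0509 in the blocked DESeq2 fit. The sign of Mavs was negative with other size factors (-0.0040), the 50-count filter (-0.0066), DESeq2 (-0.0039), limma-voom (-0.0074), the replicate block in edgeR (-0.010) and in DESeq2 (-0.015), and ran from -0.16 to 0.10 with a library left out. That of Oas3 was -0.00047 with the 50-count filter, and with a library left out it ran from -0.41 to 0.50, Tmem173 from -0.16 to 0.045 and Oas2 from -0.12 to 2.01; the cause was not tested. Oas2 has no value under the 50-count filter. Ddx58, Ifih1, Dhx58, Eif2ak2, Zbp1 and Oasl2 were lower in knockout in all 13 alternatives run. Intervals rest on 3 libraries per genotype, and the spread within each genotype limits Oas2.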
